A study of Mus musculus with 18 samples.

Results

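The neuronal intermediate filament genes of the mouse, Nefl, Nefm, Nefh, Ina and Prph, were followed across sorted cortical neurons of 2 layers and 2 Tbr1 genotypes. They were chosen by name as a gene family, 5 of the 24015 genes in the count table, at a time when values of these libraries, among them the difference of Nefl between Tbr1 null and wild-type neurons, were already known. Their levels and fold changes are therefore given as a description, and no p-value is attached to them. All 5 passed the filter on low counts in each comparison.

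Neurofilaments are the intermediate filaments of neurons, built from a light (Nefl), a medium (Nefm) and a heavy (Nefh) subunit, together with alpha-internexin (Ina) in central neurons and with peripherin (Prph) mainly in peripheral and some brainstem neurons. The light subunit forms the core on which the others assemble, and the long tails of the medium and heavy subunits project from the filament and bear on the calibre of large axons. In development alpha-internexin is an early subunit of the cortex, the light and medium subunits follow as axons extend, and the heavy subunit is late.

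RNA was sequenced from cortical neurons of mice at postnatal day 5, sorted for the red fluorescent protein tdTomato to some 25000 cells a sample. There are 3 groups with 4 libraries each. They hold layer 6 neurons of wild-type (WT) mice, layer 6 neurons labelled Tbr1 null, and layer 5 neurons of WT mice. Tbr1 encodes a transcription factor of the T-box family that acts in neurons of the deep cortical layers, above all layer 6. The label of the mutant speaks of a null in layer 6 and the series design of a constitutive null, while the sources used here do not give the allele, the strain of the sorted mice or what drives tdTomato. All layer 6 libraries were sequenced in batch A, WT layer 5 replicates 1 and 2 in batch B and replicates 3 and 4 in batch C.

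Library totals were 27465597 to 54899002 counts. The labels do not say whether replicates are separate animals. Every p-value, SE and SD therefore measures only the spread between these libraries, which may be technical. In each layer 6 group, replicates 1 and 2 share a digit of the sample code, as do replicates 3 and 4, and these pairs were closest in their counts. In layer 5, where the codes show no pairs, the counts of replicates 1 and 3 and of 2 and 4 were closest. Their chi-square per degree of freedom was 1.39 and 1.33, where counting noise alone gives about 1. Other pairings of layer 5 libraries were at 2.94 to 3.35, and the layer 6 pairs at 3.21 to 10.4. Both layer 5 pairs span batches B and C, and whether the same library was sequenced in both is not known here. Tbr1 stood at 170 to 183 CPM (counts scaled to a common library size by the trimmed mean of M-values, TMM) in WT layer 6, at 92.4 to 98.2 CPM in the null libraries and at 39.7 to 44.9 CPM in WT layer 5. Which exons the null allele lacks is not known here, so reads from the rest of the gene can remain. Xist, which marks cells with 2 X chromosomes, was at 0.462 and 0.450 CPM in WT layer 6 replicates 1 and 2, at 264 to 302 CPM in the other layer 6 libraries and at 39.0 to 40.6 CPM in layer 5. Sex composition thus differs between the groups. The 12 genes listed as pan-neuronal all had reads in each group, but their levels were not even. By edgeR 7 were higher and 4 lower in layer 5 than in WT layer 6. Of 15 measured layer 5 subcerebral markers, 10 were lower and 4 higher in the libraries labelled layer 5 than in WT layer 6 (edgeR, adjusted p under 0.05), and their summed level was 661 to 678 against 1418 to 1507 CPM. Of 16 layer 6 corticothalamic markers, 15 were lower and 1 higher in layer 5, with 1222 to 1264 against 2750 to 2921 CPM, in a comparison where edgeR called 85.5% of all genes.

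Nefl, the light subunit gene, was high in the null libraries only. In null layer 6 replicates 1 to 4 it was at 309, 308, 261 and 253 CPM. In WT layer 6 it was at 103, 105, 92.7 and 92.6 CPM, and in WT layer 5 at 105, 111, 104 and 106 CPM. Each null library was above every WT library, whereas the WT layers overlapped, layer 6 replicate 2 lying within the layer 5 range. The mean was 283 ± 30.0 CPM for the null libraries, 98.3 ± 6.58 CPM for WT layer 6, and 107 ± 3.25 CPM for WT layer 5 (SD, n = 4 each).

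Nefm, the medium subunit gene, was separate in all 3 groups. It was at 121, 114, 89.6 and 97.2 CPM in null layer 6 and at 38.9, 36.4, 43.8 and 44.5 CPM in WT layer 6. In WT layer 5 it was at 22.8, 19.8, 21.7 and 19.0 CPM. The order was null layer 6 above WT layer 6 above WT layer 5, and no library of one group reached into another. The means were 106 ± 14.6, 40.9 ± 3.91 and 20.8 ± 1.73 CPM in that order (SD, n = 4 each).

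Nefh, the heavy subunit gene, was scarce in layer 6 and higher in layer 5. It had 39 to 117 reads a library in WT layer 6, 56 to 104 in the null libraries, and 130 to 216 in layer 5. On the scaled level these are 2.46, 1.17, 1.89 and 1.62 CPM in WT layer 6 and 2.21, 1.89, 1.37 and 1.48 CPM in null layer 6. WT layer 5 had 5.41, 4.51, 5.47 and 4.70 CPM. The null range lay within the WT layer 6 range, and the 4 layer 5 libraries lay above all 8 of them.

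Ina, the gene of alpha-internexin, separated the layer 5 libraries, which are also other sequencing batches, from layer 6, and did not separate the genotypes. It was at 278, 269, 275 and 273 CPM in WT layer 6 and at 271, 297, 279.9 and 287 CPM in null layer 6. In WT layer 5 it was at 59.6, 58.5, 54.4 and 53.6 CPM. The spread in WT layer 6 was 4.12 CPM (SD, n = 4) on a mean of 274 CPM, and the genotypes overlapped, null replicate 1 lying within the WT range. Every layer 5 library was far below every layer 6 library.

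Prph, the peripherin gene, was low everywhere. Its counts ran from 73 to 188 reads per library, with 2.49 to 3.74 CPM in WT layer 6, 3.32 to 4.13 CPM in null layer 6 and 2.46 to 3.21 CPM in WT layer 5. The WT layer 6 range overlapped both others, while each null library was above each layer 5 library. Of 14 markers of peripherin-rich neurons outside the cortex, 2 passed the filter between the layer 6 genotypes and 3 in the other comparisons. Summed over the list, their level ran from 2.94 to 4.74 CPM in WT layer 6, from 2.76 to 4.34 CPM in the null libraries and from 4.08 to 5.46 CPM in layer 5.

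**Figure D1:**
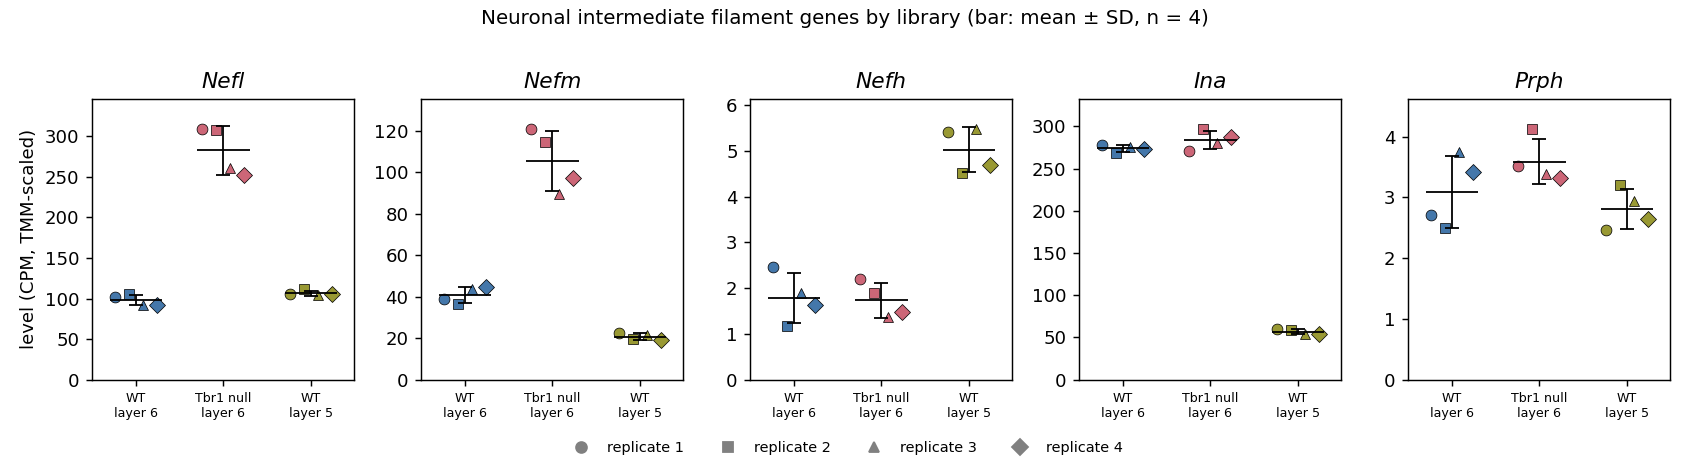
Level (CPM, TMM-scaled, vertical axes from 0 and different for each gene) of the 5 neuronal intermediate filament genes in the 12 libraries by group, with symbols for replicates and bars for mean ± SD of 4 libraries. Nefl and Nefm are highest in the null libraries, Ina is lowest and Nefh highest in layer 5, and Prph stays between 2.46 and 4.13 CPM.

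The null and WT layer 6 groups were compared first, which asks how the family differs in layer 6 neurons labelled Tbr1 null, in which reads of Tbr1 were lower but remained. The log2 fold change, null over WT, was 1.52 ± 0.069 (SE) for Nefl, a 2.88-fold higher level. For Nefm it was 1.37 ± 0.090, or 2.58-fold. Both stand near the upper end of the 14588 genes tested, Nefl with the 45th and Nefm with the 59th highest log2 fold change. The other members had small differences, with 0.050 ± 0.034 for Ina, -0.047 ± 0.23 for Nefh and 0.21 ± 0.15 for Prph. By edgeR's quasi-likelihood test with Benjamini-Hochberg adjustment over all genes, 2 of the 5 were called higher and 0 lower, against 7.31% of all genes called higher, 6.86% called lower and 14.2% called in either direction. DESeq2 and limma gave the same 2 and 0, and 0 members were lower at an unadjusted p under 0.05. The same 2 genes had groups that did not overlap, which held for 19.8% of all genes. As the members were chosen with this contrast known, nothing is read from these counts. The sign of the Nefh value turned with 1 library left out, to 0.14 without WT replicate 1, so no direction is given for it.

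Within the groups, Nefl and Nefm varied with the library pairs. Null replicates 1 and 2 were above replicates 3 and 4 for both genes. In WT layer 6, replicates 1 and 2, which lack Xist, had more Nefl and less Nefm than replicates 3 and 4. Against WT replicates 3 and 4 alone, which match the null libraries in Xist, the log2 fold change was 1.61 ± 0.082 for Nefl and 1.26 ± 0.11 for Nefm, while Prph went from 0.21 to 0.0045 ± 0.15. With the libraries of a pair summed, leaving 2 against 2, the log2 fold change was 1.53 ± 0.098 for Nefl and 1.36 ± 0.12 for Nefm. Both were still called, from which nothing is read either. Since RNA came from pooled cells, a larger share of cells rich in neurofilament RNA and more RNA per cell cannot be told apart.

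Markers of other cells were set beside these values. Of 15 layer 5 subcerebral markers, 7 were higher and 0 lower in null layer 6 (also 0 lower by DESeq2 and limma and at an unadjusted edgeR p under 0.05), with a summed level of 1658 to 1684 against 1418 to 1507 CPM in WT layer 6. Of 16 layer 6 corticothalamic markers, 10 were lower and 2 higher, with 2475 to 2559 against 2750 to 2921 CPM. Tbr1, the targeted gene, is on this list and among the lower ones, with means of 95.5 against 177 CPM. Of 10 Cajal-Retzius markers, 8 were lower and 1 higher, with 365 to 392 against 699 to 796 CPM. Of 17 measured interneuron markers, 7 were lower and 1 higher, with 874 to 903 against 1194 to 1305 CPM. Calb2 and Reln are on both this list and the Cajal-Retzius list, so these sums are not separate. Pvalb, the parvalbumin gene, had 0 counts in all WT layer 6 libraries, where Gad1, also on the list, was at 43.1 to 51.6 CPM. Gad1 was at 32.9 to 42.0 CPM in the null libraries. Astrocyte markers had 6 higher and 2 lower of 12, with 1823 to 1918 against 1555 to 1736 CPM. With paired libraries summed, the calls were 0 of either direction for astrocyte markers (6 higher and 2 lower at an unadjusted edgeR p under 0.05), 2 lower and 0 higher for interneuron, 7 lower and 0 higher for Cajal-Retzius, 6 lower and 1 higher for corticothalamic and 5 higher for subcerebral markers. The part of these cells in the Nefl and Nefm differences was not tested.

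WT layer 5 was then compared with WT layer 6, a comparison of layers that also differ in sequencing batch, so the layer and the batch cannot be told apart. Ina had a log2 fold change of -2.25 ± 0.035, a 4.74-fold lower level in layer 5 and the 136th lowest of 14927 genes tested. Nefm was at -0.94 ± 0.072, or 1.92-fold lower. Nefh was at 1.50 ± 0.18, or 2.83-fold higher, and Nefl at 0.15 ± 0.043. Prph was at -0.12 ± 0.16. The 5 subunit genes thus did not move together between layers. By edgeR 2 of the 5 were called higher and 2 lower, where 85.5% of all genes were called, 42.2% higher and 43.4% lower, and groups did not overlap in 81.1% of genes, so a call here says little about any gene.

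The close pairs of layer 5 libraries each span batches B and C, so the values from these batches may not be separate. Against batch B alone, Ina was at -2.19 ± 0.036, Nefm at -0.92 ± 0.091, Nefh at 1.48 ± 0.23 and Nefl at 0.17 ± 0.059. Against batch C alone, the values were -2.31 ± 0.037, -0.98 ± 0.091, 1.52 ± 0.24 and 0.13 ± 0.058, and Nefl was no longer called. Nefl was not called with paired libraries summed either, at 0.13 ± 0.060. In the authors' normalized table, on the other hand, its scores were 75 to 86 in WT layer 6 and 90 to 96 in layer 5 and did not overlap.

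Glial RNA differed between these groups. The summed astrocyte markers were 8576 to 8673 CPM in layer 5 and 1555 to 1736 CPM in WT layer 6, with 11 of 12 higher and 1 lower. All 10 measured oligodendrocyte lineage markers were higher, at 1102 to 1111 against 263 to 275 CPM, as were all 10 microglia markers, at 296 to 305 against 92.9 to 104 CPM, and all 10 vascular markers, at 1031 to 1045 against 549 to 598 CPM. All 10 Cajal-Retzius markers were lower in layer 5, and of 18 interneuron markers 13 were lower and 4 higher. Calb2 and Reln are counted in both lists. The 12 genes listed as pan-neuronal summed to 2131 to 2148 CPM in layer 5 and 2444 to 2489 CPM in WT layer 6. Of these, 7 were higher and 4 lower in layer 5. Among the higher ones were Slc17a7, a gene of excitatory neurons, at 1.52-fold, and Camk4 at 3.17-fold. The lower ones were Uchl1 at 2.06-fold, Elavl3 at 1.69-fold, Elavl2 at 2.40-fold and Syt1 at 1.19-fold. Uchl1 and Elavl3, at 757 ± 5.88 and 602 ± 7.88 CPM in WT layer 6, had the highest levels of the list there and weigh heavily in the sum. With libraries scaled by that sum, which moved the median log2 fold change of all genes from -0.010 to 0.16, Ina was at -2.07 ± 0.035, Nefm at -0.77 ± 0.074, Nefh at 1.68 ± 0.18 and Nefl at 0.32 ± 0.041. Prph turned sign, to 0.055 ± 0.16. The calls over all genes then split into 7425 higher and 5175 lower, against 6293 and 6475 with TMM. The part of the glial cells in the layer difference was not tested.

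The null layer 6 and WT layer 5 groups complete the order, and they share their libraries with the other comparisons. Null layer 6 had log2 fold changes over WT layer 5 of 2.30 ± 0.088 for Nefm, 2.29 ± 0.041 for Ina and 1.37 ± 0.059 for Nefl. Nefh was at -1.56 ± 0.16 and Prph at 0.32 ± 0.14. By edgeR 4 of 5 were called higher and 1 lower, where 84.3% of all genes were called, 42.4% higher and 41.8% lower, and where groups did not overlap in 80.2% of genes. The Prph call was lost in 11 of 17 alternative analyses. For all 5 genes no null library fell in the layer 5 range, with Nefh below it and the others above, Prph by a small margin.

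**Figure D2:**
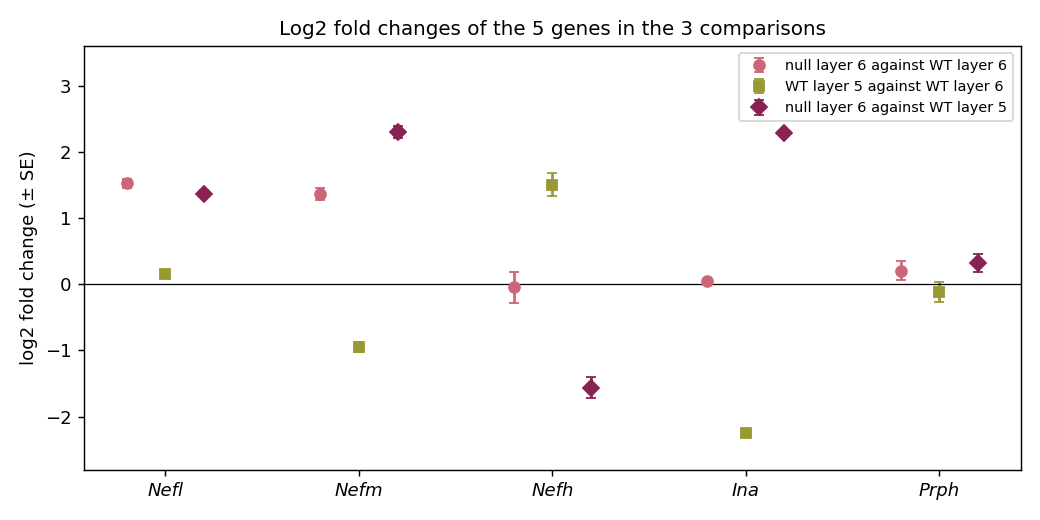
Log2 fold change ± SE from edgeR for each of the 5 genes (horizontal axis) in the 3 comparisons, which share libraries. Between layer 6 genotypes Nefl and Nefm stand at 1.52 and 1.37 with the others near 0, and between WT layers Ina is at -2.25 and Nefh at 1.50.

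Ratios of read counts within a library do not depend on scaling, although they are not ratios of molecules, since the genes differ in length. Nefm reads per Nefl read ranged from 0.346 to 0.481 among WT layer 6 libraries and from 0.343 to 0.391 among null libraries, which overlap. The overlap came from WT replicates 1 and 2, at 0.380 and 0.346, which lack Xist. WT replicates 3 and 4, at 0.472 and 0.481, lay above every null library. In layer 5 the ratio was 0.178 to 0.216, below every layer 6 library. Nefl reads per Ina read separated the 3 groups, at 0.337 to 0.392 for WT layer 6, 0.881 to 1.14 for the null libraries, and 1.77 to 1.98 for layer 5. Nefm reads per Ina read were 0.135 to 0.163 in WT layer 6, and the null libraries at 0.320 to 0.446 covered the layer 5 range of 0.339 to 0.399. Null layer 6 and WT layer 5 thus shared a raised Nefl and Nefm proportion to Ina with different levels behind it, since the mean of Ina was 284 ± 10.9 CPM in null layer 6 and 56.5 ± 2.97 CPM in layer 5 (SD, n = 4).

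The make-up of the family's reads shows the same differences. Ina gave 65.5% ± 0.462 of the reads of the 5 genes in WT layer 6, 42.0% ± 2.94 in null layer 6 and 29.5% ± 0.785 in layer 5 (SD, n = 4 each). Nefl gave 23.5% ± 1.55, 41.7% ± 1.86 and 55.6% ± 1.40 in that order. Nefm gave 9.79% ± 0.957, 15.5% ± 1.26 and 10.8% ± 0.838. Nefh gave 0.426% ± 0.123, 0.255% ± 0.0424 and 2.62% ± 0.273. Summed over the 5 genes, the level was 418 ± 4.95 CPM in WT layer 6, 677 ± 45.5 CPM in the null libraries, and 192 ± 5.55 CPM in layer 5.

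**Figure D3:**
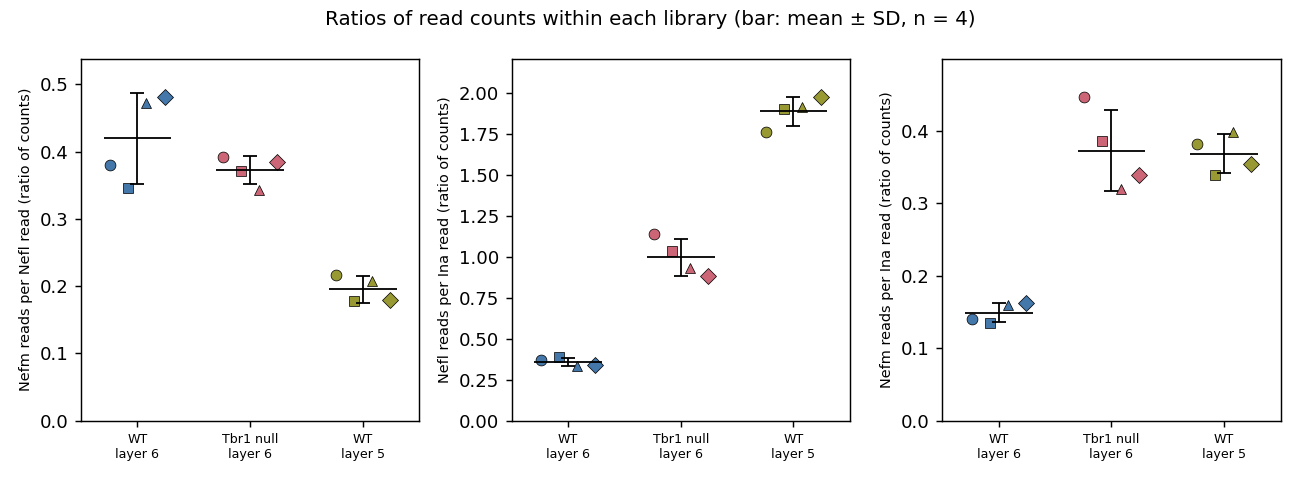
Ratios of read counts within each library (vertical axes from 0), with symbols for replicates as in the plot of levels by library and bars for mean ± SD of 4 libraries. The Nefl to Ina ratio separates all 3 groups, and the Nefm to Nefl ratio is lowest in layer 5, at 0.178 to 0.216.

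The scores of the authors' normalized table gave the same order of group means for Nefl, Nefm, Ina and Prph as the counts. The mean score of Nefl was 235 in the null libraries, 80.2 in WT layer 6 and 92.0 in WT layer 5, and that of Nefm was 93.0, 36.8 and 19.0. Ina had 232, 229 and 51.8 in the same order. Nefh had whole-number scores of only 1 or 2 in layer 6 and 4 or 5 in layer 5.

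Genes that handle neurofilaments were counted from 5 lists drawn up by function, with earlier results of these data known. Of their 103 genes, 101 were tested between layer 6 genotypes. In null layer 6, 10 were higher and 12 lower (edgeR adjusted p under 0.05), or 21.8%, where 14.2% of all genes were called, with a median log2 fold change of 0.020 against 0.00034 over all genes. None of the 22 reached the size of the Nefl or Nefm difference, and with paired libraries summed 1 of the lists' genes was called, Dync1i1, and the other calls were lost.

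Among 17 other intermediate filament genes tested, 2 were higher and 1 lower in null layer 6. Vim, the vimentin gene of progenitors and glia, was at 368 ± 7.62 in null and 332 ± 4.19 CPM in WT (n = 4 each; edgeR adjusted p 0.00355). Nes, which encodes nestin of neural progenitors, was at 288 ± 7.15 and 263 ± 5.43 CPM (edgeR adjusted p 0.0109). Synm, which encodes synemin, a partner of vimentin-type filaments, was lower at 25.5 ± 1.59 against 34.5 ± 4.39 CPM (edgeR adjusted p 0.00299). Of 10 dividing progenitor markers, 3 were higher and 0 lower (1 lower at an unadjusted edgeR p under 0.05, and 0 by DESeq2 and limma), with a summed level of 492 to 517 against 459 to 472 CPM, and their part in Vim and Nes was not tested. With paired libraries summed, 0 of these markers were called (3 higher at an unadjusted edgeR p under 0.05).

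Linkers and motors, which tie neurofilaments to other cytoskeletal parts or carry them along axons, had 1 higher and 2 lower of 17, with a median log2 fold change of 0.018. The dynein intermediate chain gene Dync1i1 was at 228 ± 6.23 in null and 278 ± 3.58 CPM in WT (edgeR adjusted p 3.92e-05). The gene of its heavy chain, Dync1h1, was higher with a log2 fold change of 0.11 ± 0.032, and Plec, which encodes the linker plectin, lower with -0.27 ± 0.075. Kif5a, the neuronal kinesin heavy chain whose loss disturbs neurofilament transport, was at 408 ± 6.24 and 424 ± 17.7 CPM and was not called. Of 26 kinases and phosphatases that act on neurofilament tails or related proteins, 0 were higher and 4 lower (2 higher at an unadjusted edgeR p under 0.05, 1 higher by DESeq2 and 0 by limma). The 4 are Camk2b at -0.23 ± 0.028, Ppp2r2b at -0.23 ± 0.031, Mapk3 at -0.23 ± 0.047 and Mapk10 at -0.14 ± 0.033. Cdk5r1 and Cdk5r2, activators of the tail kinase CDK5, were not called. Cdk5r1 was close to the threshold, at 0.079 ± 0.025 (edgeR adjusted p 0.0538), and Cdk5r2 was at 0.0071 ± 0.081.

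Of 14 turnover and RNA regulator genes, 2 were higher and 2 lower. The small heat shock gene Cryab was among the lower ones, with a log2 fold change of -0.65 ± 0.11. Of 27 axonal microtubule and growth genes, 5 were higher and 3 lower, with a median of 0.037. Gap43, which marks growing axons, was at 599 ± 15.3 against 533 ± 9.98 CPM (edgeR adjusted p 0.00164) and Tuba4a, a tubulin gene of mature neurons, at 33.0 ± 2.29 against 24.0 ± 3.38 CPM. Tubb2a was higher at 0.17 ± 0.032 and Tubb2b lower at -0.13 ± 0.022.

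Between WT layers, 50 of 100 tested genes of these lists were higher in layer 5 and 42 lower, 92.0% against 85.5% of all genes. Linkers and motors had 13 higher and 3 lower of 17, with a median log2 fold change of 0.52. Ank2, an ankyrin gene of the axonal membrane skeleton, was 3.56-fold higher, its partner spectrin gene Sptbn1 2.58-fold and Plec 7.32-fold. Kif5a was at 1016 ± 4.82 against 424 ± 17.7 CPM. Axonal microtubule and growth genes had 19 lower and 7 higher of 27. Tubb3, the neuronal beta-tubulin gene, was at 1740 ± 30.2 against 3335 ± 89.8 CPM, and Crmp1 and Basp1, both of growing axons, were 2.03-fold and 2.01-fold lower. Map1a, a microtubule-associated protein gene of mature neurons, was 6.17-fold higher. For each of these 8 genes edgeR gave an adjusted p of at most 1.10e-13, with libraries taken as separate and layer confounded with batch. Gap43, which also marks growing axons, went the other way from Crmp1 and Basp1, at 604 ± 11.1 against 533 ± 9.98 CPM (edgeR adjusted p 3.95e-07). Gfap, the astrocyte filament gene, was at 210.0 ± 3.35 against 27.5 ± 8.28 CPM, beside the astrocyte markers above, and Vim at 242 ± 5.29 against 332 ± 4.19 CPM. Of 26 kinases and phosphatases 13 were higher and 11 lower, with Cdk5r2 3.34-fold higher and Cdk5r1 1.85-fold lower. Of 14 turnover and RNA regulator genes 8 were higher and 5 lower, among them Trim2, a ubiquitin ligase gene for the light subunit, 1.53-fold lower.

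Between null layer 6 and WT layer 5, 44 of 101 tested genes of the lists were higher and 48 lower in the null libraries, or 91.1% against 84.3% of all genes. Linkers and motors had 3 higher and 12 lower of 17, and axonal microtubule and growth genes 19 higher and 5 lower of 27.

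**Figure D4:**
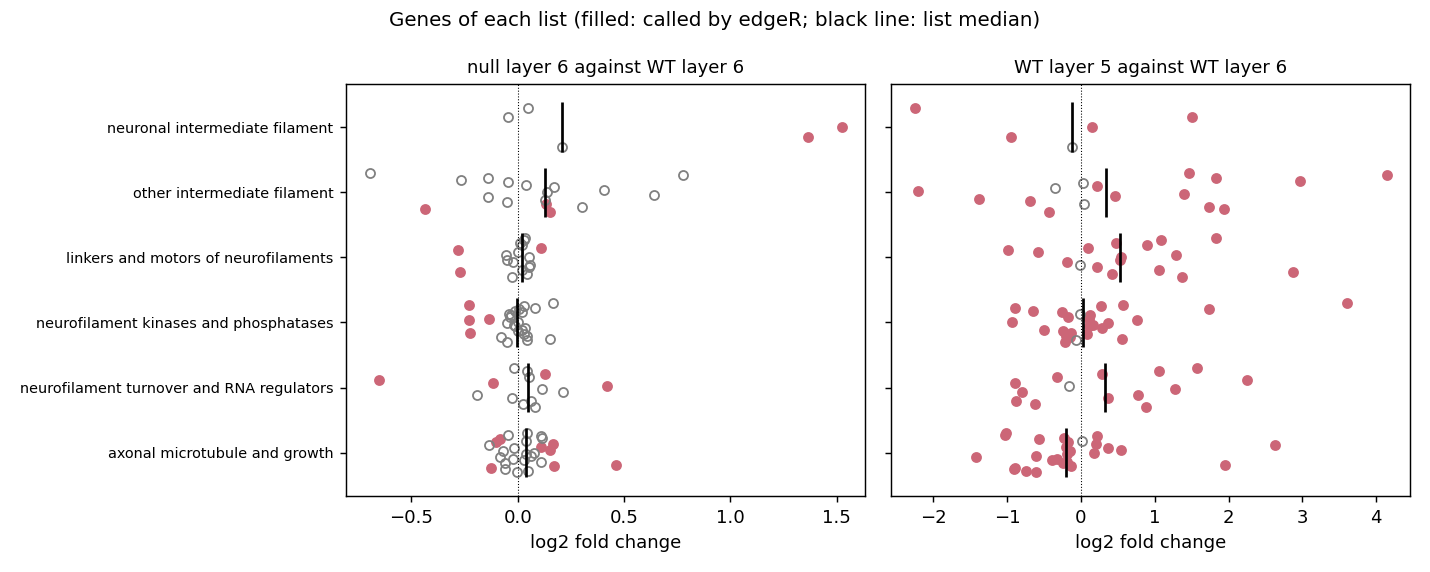
Log2 fold change (horizontal axis, different scales) of each tested gene of the family and of the 5 related lists, null against WT layer 6 on the left and WT layer 5 against WT layer 6 on the right, filled where edgeR called the gene, with a black line at each list's median. On the left Nefl and Nefm lie right of all related genes, and on the right most genes of every list are called.

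The genes whose levels followed each member most closely over the 12 libraries were taken by Pearson correlation of log2 CPM among 11144 genes with a mean of at least 5 CPM. These correlations describe 3 groups of libraries more than 12 separate points, and the genes share libraries and depth. Nefl was most like Dpp10, a potassium channel auxiliary subunit gene (r = 0.995), Grm7, a presynaptic glutamate receptor gene (0.988), the splicing factor gene Nova1 (0.982), Tmtc2 (0.980) and Fat1 (0.979). Their differences were smaller, Dpp10 having mean levels of 58.7 CPM in WT layer 6, 87.1 CPM in null layer 6 and 61.1 CPM in layer 5. Nefm was most like the adhesion molecule gene Cntn4 (r = 0.997), with means of 13.5, 28.4 and 8.16 CPM in the same order, then Rabgap1l (0.992), Cdk17 (0.989), Zfp804a (0.989) and the cation channel gene Trpc4 (0.988).

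Ina was most like Chrnb2, a nicotinic receptor subunit gene (r = 0.999), Thra, a thyroid hormone receptor gene (0.999), Reep1 (0.999), Tmem74 (0.999) and Hnrnph1 (0.999). Chrnb2 had means of 106 CPM in WT layer 6, 110 CPM in null layer 6 and 32.4 CPM in layer 5. Nefh was most like Rnf208 (r = 0.985), Dtx3l (0.979), Ptplb (0.973), Rtkn (0.973) and Arhgef5 (0.969), all highest in layer 5. For Prph, near the same level in all groups, the closest were Ick (0.887), Slc25a25 (0.880), Ankrd46 (0.871), Stmn4 (0.863) and Nudt9 (0.849). No gene was on 2 of these 5 lists.

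**Figure D5:**
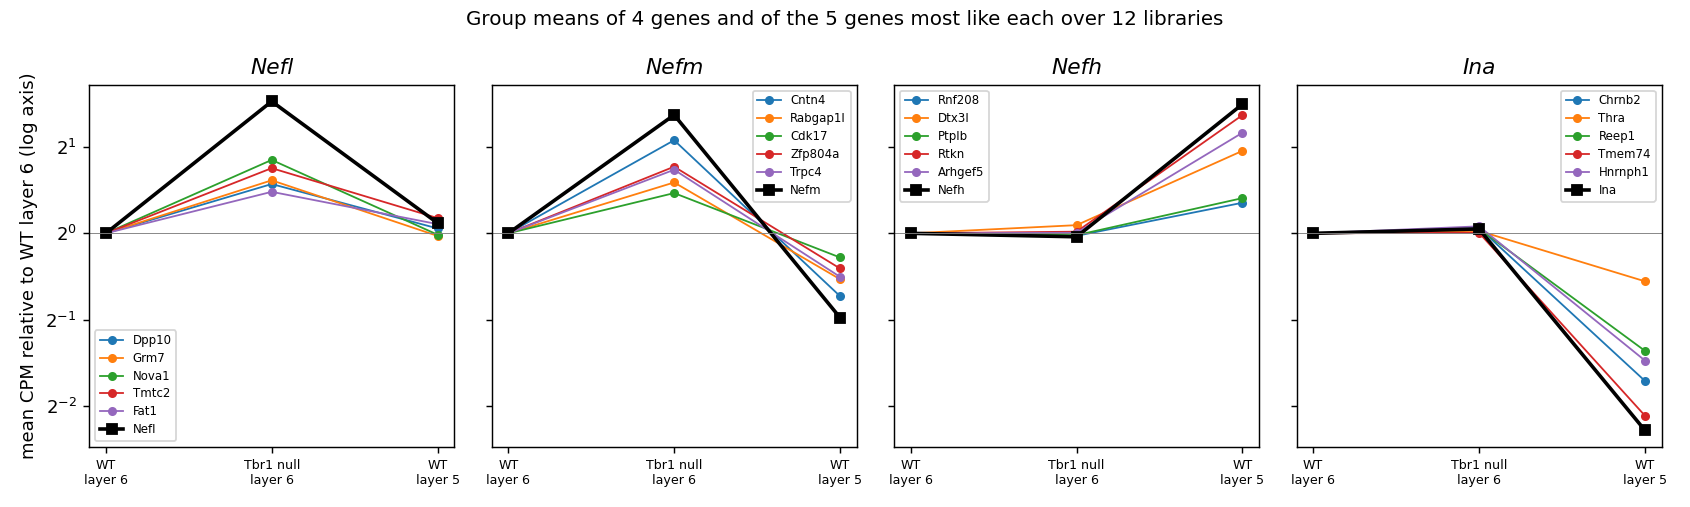
Mean CPM in each group relative to WT layer 6 (log axis) for Nefl, Nefm, Nefh and Ina (black) and for the 5 genes most like each over 12 libraries (colours), by a measure that uses the shape and not the size of the differences. The null mean of Nefl is 2.88 times that of WT layer 6, above each of its 5 genes.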

How the data were processed

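The count table the authors deposited holds whole numbers of reads for each gene. The submitters' processing notes name, without roles, STAR 2.5.2b, HTSeq, Trim Galore 0.4.2 and mm9, and the annotation and strand setting of the counting are not stated there. Libraries were stranded and ribosome-depleted, per the labels' protocols. In the RefSeq gene table (GRCm38.p6) the span of Nefh overlaps that of Ap1b1 and the span of Ina that of Nt5c2. How reads in these shared parts were counted is not known here. The second table deposited by the authors holds normalized whole-number scores by steps not stated. Peak lists of TBR1 chromatin immunoprecipitation are in mm9 and were not used here, since they could not be placed by gene.

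All 24015 genes entered the totals, and 0 columns were unmatched. CPM values use TMM factors over all 12 libraries. Each comparison was fitted on its 2 groups with edgeR 4.0.16 (R 4.3.3; TMM, filterByExpr, quasi-likelihood F-test), called at a Benjamini-Hochberg adjusted p under 0.05, and checked on simulated counts. SE is the log2 fold change over the root of F. DESeq2 1.42.0 and limma 3.58.1 were alternatives. The members and lists were chosen with earlier results of these data known. Named genes are the members, Tbr1, up to 4 per list with the smallest adjusted p in either of the first 2 comparisons, and 5 per member by correlation (prior count 1). Kif5a, Pvalb, Gad1, Calb2, Reln, Slc17a7, Camk4, Uchl1, Elavl3, Elavl2, Syt1, Xist and the chromosomal neighbours fall outside this rule. They were chosen after their values were seen, as was naming of uncalled genes. Some items the rule would name are not reported here.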

Additional observations from a re-analysis of the deposited data

How the results depend on the processing

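Nefl and Nefm kept their direction and their call between layer 6 genotypes in all 18 alternatives, at 1.48 to 1.61 and 1.26 to 1.44 on the log2 scale, and so did Nefm, Nefh and Ina between WT layers in all 19, at -1.003 to -0.77, 1.36 to 1.69 and -2.31 to -2.07. As the members were chosen with these values known, the kept calls are a description, and nothing is read from them. The Nefh value between genotypes turned positive without null replicate 3 (0.047), null replicate 4 (0.021) or WT replicate 1 (0.14), and leaving out 1 library gave -0.19 to 0.14. Prph between WT layers turned positive when scaled by pan-neuronal genes (0.055). The Nefl call between WT layers was lost in batch C alone and with paired libraries summed, which left 1 member called higher in each. With paired libraries summed, which leaves 2 samples a group, null against WT layer 6 gave 249 genes higher and 230 lower in place of 1067 and 1001, and the related lists 0 higher (9 at an unadjusted p under 0.05) and 1 lower in place of 10 and 12. With limma and a random effect for the pair, 688 and 589 genes were called. Marker calls lost with summed pairs stand beside those markers. Pairs in layer 5 were set from the counts. Leaving out 1 library gave 872 to 958 higher and 753 to 880 lower, and 3 or 4 members higher between null layer 6 and WT layer 5. Same-numbered libraries did not deviate together (correlations -0.13 to 0.022), although each null library correlated best with the layer 5 library of its own number. With the replicate number as a block, the fit called 812 genes higher and 714 lower between genotypes and changed no member's call. Counts of 39 to 216 reads limit Nefh and Prph. Regions bound by TBR1 near the members, with their threshold and window, were not run.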

Other observations

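Nefl and Nefm are neighbours on chromosome 14 in the RefSeq gene table (GRCm38.p6), and the values of the genes beside them were looked up after those of the members had been seen. Dock5, next to Nefl, encodes an activator of the small GTPase RAC and was called lower in the null libraries than in WT layer 6, with a log2 fold change of -0.64 ± 0.14 (edgeR adjusted p 0.00901), and higher in WT layer 5 than in WT layer 6, at 1.26 ± 0.068 (edgeR adjusted p 2.14e-10). Both directions are opposite to those of Nefm. For Nefl only the direction between genotypes is opposite, since Nefl was at 0.15 ± 0.043 between WT layers. The next genes outward, Gnrh1, Adam7 and Adamdec1, had at most 6, 2 and 4 reads in any library and were not tested. The genes beside Ina did not share 1 pattern. Cnnm2 was at -0.46 ± 0.071 between layer 6 genotypes (edgeR adjusted p 0.000666) and at -0.091 ± 0.084 between WT layers. Pcgf6, which encodes a Polycomb group protein, and Taf5, which encodes a subunit of the general transcription factor TFIID, were at -0.92 ± 0.086 and -1.92 ± 0.057 between WT layers and at -0.017 ± 0.071 and -0.038 ± 0.057 between layer 6 genotypes. Nt5c2, whose span overlaps that of Ina, was at -0.086 ± 0.034 and 0.090 ± 0.034. Ap1b1, whose span overlaps that of Nefh, was at 0.15 ± 0.026 between WT layers and -0.027 ± 0.029 between genotypes. Of the other genes beside Nefh, Nipsnap1 was at -0.99 ± 0.043, Thoc5 at -0.998 ± 0.043 and Gas2l1 at 1.13 ± 0.040 between WT layers, and at -0.024 ± 0.042, -0.15 ± 0.036 and 0.042 ± 0.051 between genotypes. Beside Prph, Tuba1a was at -0.24 ± 0.040, Tuba1c at -3.06 ± 0.20 and Troap at -0.40 ± 0.14 between WT layers, and at -0.061 ± 0.046, -0.053 ± 0.28 and 0.0016 ± 0.13 between genotypes.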
